A study of Mus musculus with 8 samples.

Results

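Transforming growth factor beta (TGF-beta) signalling was followed through 9 genes: the ligand genes Tgfb1, Tgfb2 and Tgfb3, the activin subunit gene Inhba, the receptor genes Tgfbr1 and Tgfbr2, the signal transducer gene Smad3 and the feedback genes Smad7 and Skil. They were taken by symbol as 9 of the 18251 genes in the deposited count table, each had 1 row, and all 9 passed the filter on low counts. The tumours had grown under the skin of male C57 mice from MC38 cells, a mouse colon cancer line that carried TetOn-CXCL14, a construct that makes the chemokine CXCL14 when doxycycline (DOX) is present. Mice of 7 weeks were used, and 2 groups of 4 tumours, each from its own animal, were sequenced in bulk. In the DOX group the drinking water held 1 mg/mL DOX over 3 days, while controls, with the same MC38 TetOn-CXCL14 tumours, were left untreated. The labels name a tumour size of 300 mm³ both for the start of DOX and for harvest. The series as analysed here has no tumours that lack the construct but received DOX, so effects of the drug and of the induced chemokine cannot be told apart. The sources used here do not say whether the line is 1 clone.

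TGF-beta ligands are secreted in a latent form and, once released, bind TGFBR2, which recruits and phosphorylates TGFBR1. The activated receptor phosphorylates SMAD2 and SMAD3, which enter the nucleus with SMAD4 and switch target genes on or off. Among those targets are Smad7, an inhibitory SMAD that blocks the receptor, and Skil, which encodes the SMAD corepressor SnoN, so that the pathway restrains itself. Activin A, a dimer of the Inhba product, uses other receptors but the same SMADs. In tumours the pathway is known for effects on fibroblasts, on T cells and on the epithelial-mesenchymal transition.

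The libraries held between 18685975 and 19307481 counts per tumour. Cxcl14 itself stood at 30.1, 30.2, 20.3 and 15.8 CPM (counts scaled to library size with TMM factors) in DOX tumours 1 to 4, against 9.34, 9.69, 8.30 and 9.59 CPM in control tumours 1 to 4, so the groups did not overlap. Its log2 fold change was 1.38 ± 0.20 (SE). The adjusted p was 0.387 in edgeR's quasi-likelihood test, which did not call it, and 1e-06 in DESeq2, which did. On the first principal component of the tested genes DOX tumour 4 lay at 43.1, the other DOX tumours at -10.5 to 22.0 and the control tumours at -27.3 to -9.35; on the second, control tumour 1 lay at 38.4 and all others at -15.6 to 13.1. Results are therefore also given without these tumours where that matters. The labels call the cells colon cancer, but of 6 colon epithelial marker genes measured only the cadherin gene Cdh1 passed the filter on low counts, and Epcam reached at most 0.366 CPM in any tumour. Summed levels of 8 macrophage marker genes were 2472 to 4330 CPM in DOX tumours, against 1807 to 2148 CPM in control tumours. Of the 8, 7 had an unadjusted p below 0.05 in edgeR's quasi-likelihood test, all higher in DOX tumours, against 7.65% of all tested genes. Summed levels of 7 T cell marker genes were 60.3 to 201 CPM in DOX tumours, against 19.6 to 58.9 CPM in control tumours. Each of these 7 had such a p on the higher side. The median log2 fold change was 0.63 for the macrophage and 1.48 for the T cell markers. In such bulk samples, more cells of a type and more RNA per cell cannot be told apart.

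The upstream sequences of 3 ligand genes are shown because Tgfb1 and Inhba are the members whose groups did not overlap, in opposite directions, and because Tgfb2 belongs to a correlated pair described further on. Each window holds 250 bases up to the base before the start used in RefSeq's GRCm38.p6 annotation, written 5′ to 3′ on the strand of the gene. Tgfb1 lies at chr7:25687002-25705077 and its window at chr7:25686752-25687001, plus strand. The Inhba window lies at chr13:16011601-16011850, plus strand, and belongs to a start inside the annotated gene, chr13:16004256-16031609. Tgfb2 lies at chr1:186622787-186709697 and its window at chr1:186705990-186706239, minus strand, likewise at a start inside the annotated gene. Capitals mark the GC box GGGCGG, on either strand, the TATA box TATAAA, on the strand of the gene, and the SMAD core CAGAC, on either strand.
Tgfb1: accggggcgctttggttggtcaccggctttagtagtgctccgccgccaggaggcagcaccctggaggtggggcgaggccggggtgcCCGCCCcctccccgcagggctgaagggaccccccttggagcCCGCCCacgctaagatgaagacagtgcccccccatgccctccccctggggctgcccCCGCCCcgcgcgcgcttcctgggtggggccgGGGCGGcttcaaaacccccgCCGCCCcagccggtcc
Inhba: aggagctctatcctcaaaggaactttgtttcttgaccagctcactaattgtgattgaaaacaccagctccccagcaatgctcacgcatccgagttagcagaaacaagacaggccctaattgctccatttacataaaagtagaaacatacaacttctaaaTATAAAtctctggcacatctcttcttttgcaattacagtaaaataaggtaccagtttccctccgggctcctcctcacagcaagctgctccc
Tgfb2: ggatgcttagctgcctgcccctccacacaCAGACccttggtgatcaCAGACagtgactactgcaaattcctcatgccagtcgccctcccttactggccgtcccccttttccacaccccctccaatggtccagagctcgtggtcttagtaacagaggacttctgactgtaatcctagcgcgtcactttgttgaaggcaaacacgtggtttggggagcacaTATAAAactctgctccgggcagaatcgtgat

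The 3 windows differ in composition. The Tgfb1 window was 75.2% G and C, with 5 GC boxes that do not overlap each other and no match to the TATA box or the SMAD core. The Inhba window was 43.2% G and C, with no GC box and with 1 TATA box that begins 91 bases before the start. The Tgfb2 window was 53.6% G and C and held 1 TATA box that begins 31 bases before the start, 2 SMAD cores and 1 E-box (CACGTG, left in lower case). Over all 32851 windows of this length in the table, 32.7% held a GC box, 7.59% a TATA box, 42.2% a SMAD core and 6.02% an E-box, and the median share of G and C was 52.4%. None of the 3 windows matched the palindromic SMAD element GTCTAGAC, the AP-1 element TGANTCA or the cyclic AMP element TGACGTCA, which 0.167%, 6.75% and 1.55% of all windows held. Such matches describe letters, and no binding was measured. In all, 6 of the 9 members were matched in that table. Tgfb3 and Skil were not. The search for members left out chromosome 18, where Smad7 lies, so whether Smad7 has a window was not read.

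Per length of transcript, in the FPKM values that the authors deposited, Tgfb3 and Tgfb1 were the most abundant members, at 61.6 ± 21.8 and 59.8 ± 7.14 FPKM over the 8 tumours (SD, n = 8). Tgfbr2 followed at 42.1 ± 7.03 FPKM and Inhba at 41.1 ± 6.13 FPKM. Skil stood at 22.7 ± 2.55 FPKM, Smad3 at 17.4 ± 2.11 FPKM and Tgfbr1 at 16.1 ± 2.32 FPKM. Smad7 and Tgfb2 were lowest, at 8.30 ± 1.44 and 5.36 ± 1.45 FPKM. The means of Tgfb3 and Tgfb1, of Tgfbr2 and Inhba, and of Smad3 and Tgfbr1 were closer to each other than 1 SD, so their order is not set by these data. The ranges over tumours were apart between Inhba, with at least 30.0 FPKM, and Skil, with at most 24.5 FPKM, and between Tgfbr1, with at least 11.7 FPKM, and Smad7, with at most 10.8 FPKM.

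No member passed the test of DOX against control tumours: in edgeR's quasi-likelihood test the Benjamini-Hochberg adjusted p, taken over all 13436 tested genes, lay between 0.387 and 0.944 for the 9 members. That test called 1 gene in all, 0.00744% of those tested. The induced gene Cxcl14 was not called either, with an adjusted p of 0.387, so a miss in this test does not show that a gene was unchanged. DESeq2 also called 0 of the 9, with adjusted p between 0.166 and 0.957, against 0.618% of its 13261 genes. Without adjustment 2 of the 9 had p below 0.05 in edgeR, Tgfb1 on the higher side and Inhba on the lower side, and DESeq2 gave such a p to 2 as well, against 12.1% of its genes. Among all genes tested with edgeR 7.65% reached that on the higher and 3.95% on the lower side, 11.6% together, and with only 9 members a count of 2 is not read as a result about them. The same 2 members were those whose groups did not overlap, which held for 3.23% of tested genes with every DOX tumour above and 2.43% with every DOX tumour below, or 5.66% together. In sign, 2 members were higher and 7 lower in DOX tumours, while 46.8% of all tested genes were higher. Their median log2 fold change was -0.15, against -0.01 over all tested genes.

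**Figure D1:**
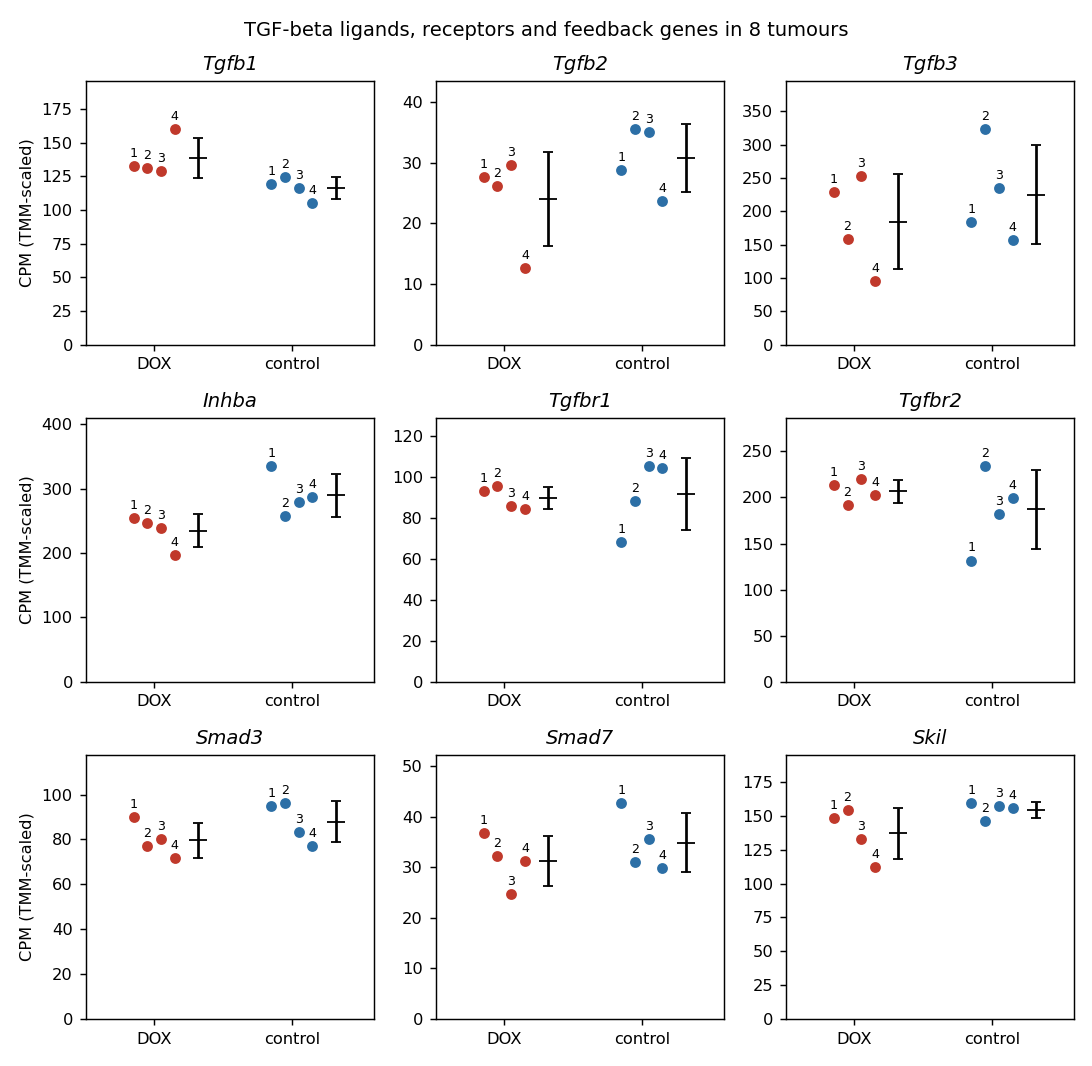
Level of each of the 9 members in CPM (TMM-scaled, y axis from 0) in the 4 DOX tumours (red, left) and the 4 control tumours (blue, right). Each point is a tumour with its number, and the bar beside a group is its mean ± SD; only for Tgfb1 and Inhba did the groups not overlap.

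Among the ligands, Tgfb1, the isoform that leukocytes and platelets make in quantity, was higher in every DOX tumour than in any control tumour but did not pass the test. It stood at 133, 131, 129 and 161 CPM in DOX tumours 1 to 4, against 120, 124, 117 and 105 CPM in control tumours 1 to 4. All DOX tumours lay above all control tumours, and DOX tumour 4 stood well above the other 3, which were within a few CPM of each other. The means were 138 ± 14.9 CPM in DOX and 116 ± 8.17 CPM in control tumours (SD, n = 4 each), a log2 fold change of 0.25 ± 0.08 (SE) with an unadjusted edgeR p of 0.0154 and an adjusted p of 0.387. The exact two-sided permutation p was 0.0286, which is the smallest that 4 against 4 tumours allow. Without DOX tumour 4 the log2 fold change was 0.18. The macrophage marker sum was also highest in DOX tumour 4, at 4330 CPM against 2472 to 3205 CPM in the other DOX tumours. So was the T cell marker sum, at 201 CPM against 60.3 to 95.6 CPM. The part of either sum in the Tgfb1 level was not tested. Platelet and megakaryocyte markers summed to 8.67 to 12.1 CPM in DOX and 7.70 to 14.2 CPM in control tumours.

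Inhba, which encodes the subunit of activin A, was lower in every DOX tumour than in any control tumour. It stood at 255, 247, 239 and 197 CPM in DOX tumours 1 to 4, against 336, 257, 279 and 286 CPM in control tumours 1 to 4. The gap between the groups was narrow, between 255 CPM in DOX tumour 1 and 257 CPM in control tumour 2, and the extremes were DOX tumour 4 and control tumour 1. The means were 235 ± 25.6 CPM in DOX and 290 ± 33.1 CPM in control tumours (SD, n = 4 each), a log2 fold change of -0.30 ± 0.10 (SE) with an unadjusted edgeR p of 0.015 and an adjusted p of 0.387. The exact permutation p was again 0.0286. Without both DOX tumour 4 and control tumour 1, a choice made after seeing the data, the log2 fold change was -0.15. The count of Inhba was whole in 0 of 8 libraries, and whether its level holds reads shared with other genes was not tested.

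Tgfb3 and Tgfb2, isoforms made by mesenchymal and many tumour cells, varied more between tumours of 1 group than between the groups. Tgfb3 stood at 230, 158, 253 and 96.2 CPM in DOX tumours 1 to 4, against 184, 324, 236 and 157 CPM in control tumours 1 to 4. The groups overlapped over most of their range, with the lowest value in DOX tumour 4 and the highest in control tumour 2. Its log2 fold change was -0.29 ± 0.32 (SE; edgeR adjusted p = 0.757), or -0.07 without DOX tumour 4, -0.06 without control tumour 2 and -0.48 without DOX tumour 3. The coefficient of variation of Tgfb3 over the 8 tumours was 34.4%, above 89.2% of tested genes, whose median was 10.9%.

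Tgfb2 was much scarcer and followed the same tumours. It stood at 27.7, 26.2, 29.6 and 12.7 CPM in DOX tumours 1 to 4, against 28.8, 35.7, 35.1 and 23.8 CPM in control tumours 1 to 4. DOX tumour 4 was the lowest of the 8, and the other DOX tumours lay within the range of the controls. The log2 fold change was -0.36 ± 0.25 (SE; edgeR adjusted p = 0.61), or -0.14 without DOX tumour 4. The count of Tgfb2 was whole in 1 of 8 libraries and that of Tgfb3 in 8 of 8, and why some counts are fractional is not stated in the labels.

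The balance of the 3 TGF-beta ligand genes stood out in a single tumour. Summed per length, they reached 139, 115, 143 and 104 FPKM in DOX tumours 1 to 4, against 113, 164, 135 and 101 FPKM in control tumours 1 to 4. Of this sum Tgfb1 made up 45.7, 54.0, 42.6 and 70.7% in DOX tumours 1 to 4, against 48.0, 35.9, 41.4 and 48.9% in control tumours 1 to 4. Tgfb3 exceeded Tgfb1 in DOX tumours 1 and 3 and in control tumours 2 and 3, while in DOX tumour 4 Tgfb1 was at 2.62 times the level of Tgfb3. Tgfb2 never made up more than 5.17% of the sum.

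**Figure D2:**
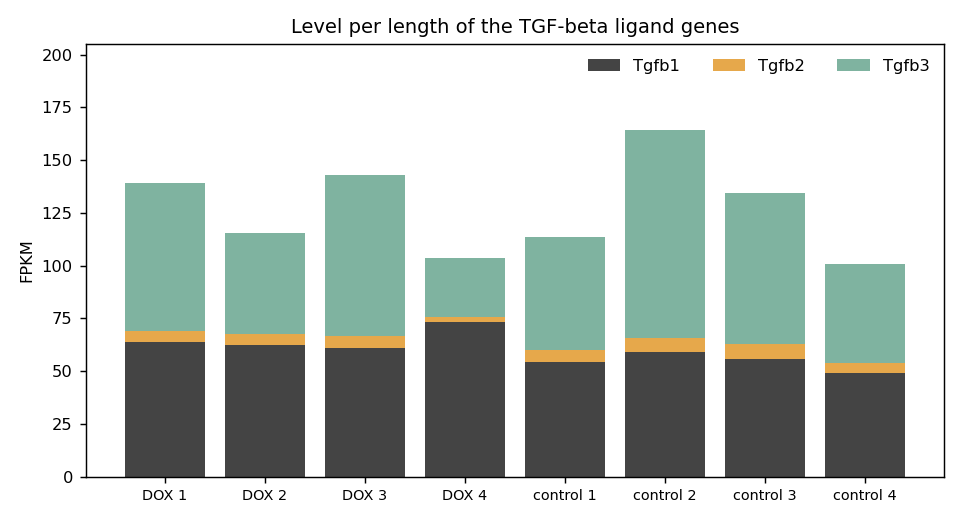
Level per transcript length (FPKM as deposited by the authors, stacked from 0) of Tgfb1, Tgfb2 and Tgfb3 in each of the 4 DOX tumours (left) and 4 control tumours (right). Tgfb1 takes 70.7% of the sum in DOX tumour 4 and 35.9 to 54.0% in the other 7 tumours, and Tgfb2 is the thin layer in each bar.

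The receptor genes did not separate the groups. Tgfbr2, the ligand-binding receptor, stood at 214, 192, 220 and 203 CPM in DOX tumours 1 to 4, against 132, 235, 183 and 199 CPM in control tumours 1 to 4. The DOX values lay inside the control range, which control tumour 1 widened at its lower end. The log2 fold change was 0.15 ± 0.15 (SE; edgeR adjusted p = 0.739), or 0.01 without control tumour 1 and 0.28 without control tumour 2. Tgfbr1, the signalling receptor kinase, stood at 92.8, 95.4, 86.0 and 84.1 CPM in DOX tumours 1 to 4, against 68.1, 88.0, 105 and 105 CPM in control tumours 1 to 4. Control tumour 1 was again the lowest of all, and the log2 fold change was -0.03 ± 0.13 (SE; edgeR adjusted p = 0.944). The sign of that value turned when control tumour 3, control tumour 4 or DOX tumour 4 was left out. Per length, Tgfbr2 exceeded Tgfbr1 in every tumour, by 2.43 to 3.08 times in DOX and 2.09 to 3.21 times in control tumours. Tgfbr1 had a whole count in 0 of 8 libraries.

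Smad3, which carries the signal of TGF-beta and activin receptors into the nucleus, varied least of the members, with a coefficient of variation of 10.8% over the 8 tumours, close to the 10.96% of Skil. It stood at 90.1, 77.1, 80.2 and 71.5 CPM in DOX tumours 1 to 4, against 94.8, 96.3, 83.3 and 77.1 CPM in control tumours 1 to 4. The groups overlapped, with DOX tumour 4 lowest, and the log2 fold change was -0.14 ± 0.09 (SE; edgeR adjusted p = 0.587), or -0.09 without DOX tumour 4 and -0.09 without control tumour 2.

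The feedback genes Skil and Smad7 are direct targets of TGF-beta signalling and, in turn, inhibitors of it. Skil stood at 149, 154, 133 and 112 CPM in DOX tumours 1 to 4, against 160, 146, 157 and 156 CPM in control tumours 1 to 4. The controls were close together, with a coefficient of variation of 3.86% against 13.7% in DOX tumours, where tumours 3 and 4 lay below the control range. The log2 fold change of Skil was -0.17 ± 0.10 (SE; edgeR adjusted p = 0.499), or -0.09 without DOX tumour 4. Smad7 stood at 36.8, 32.3, 24.8 and 31.2 CPM in DOX tumours 1 to 4, against 42.8, 31.0, 35.6 and 30.0 CPM in control tumours 1 to 4. Control tumour 1 was the highest and DOX tumour 3 the lowest, and the other 6 lay between 30.0 and 36.8 CPM. The log2 fold change of Smad7 was -0.15 ± 0.14 (SE; edgeR adjusted p = 0.699), or -0.04 without control tumour 1, -0.06 without DOX tumour 3 and -0.24 without DOX tumour 1.

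The members' extremes gathered in few tumours, and those of all tested genes were also uneven between tumours. DOX tumour 4 was the lowest of 8 in 5 members, Tgfb2, Tgfb3, Smad3, Skil and Inhba, and the highest in Tgfb1, and so was extreme in 6 of 9; it was extreme in 46.8% of all tested genes. Control tumour 1 was the highest in Smad7, Skil and Inhba and the lowest in Tgfbr1 and Tgfbr2, which is 5 of 9 members against 36.8% of tested genes. Control tumour 2 was the highest in Tgfb2, Tgfb3, Tgfbr2 and Smad3, which is 4 of 9 members, and was extreme in 29.0% of tested genes. DOX tumours 1 and 2 were extreme in 0 members, against 11.9% and 12.5% of tested genes. The shares for DOX tumour 4 and control tumours 1 and 2 are thus read against tumours that were extreme in many genes. Among the DOX tumours, the one with the lowest Cxcl14, tumour 4, had the highest Tgfb1 and the lowest Inhba, Skil, Smad3, Tgfb2, Tgfb3 and Tgfbr1. That is a single tumour, extreme in many genes, and a relation of the members to the Cxcl14 level was not tested.

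Across the 8 tumours, 2 of the 36 pairs of members were correlated beyond an adjusted p of 0.05, on log2(CPM + 1). Each p came from an exact permutation test over 40320 pairings, adjusted over the 36 pairs. The share of pairs of all tested genes that would pass was not computed, so this count is not read as particular to the members. Tgfb2 and Tgfb3 had Pearson's r = 0.92 (exact p = 0.00109, adjusted p = 0.0196) and Spearman's rho = 0.95 (exact p = 0.00114, adjusted p = 0.0411). Within the groups, as deviations from the group means, r was 0.91 (exact p = 0.00174 over permutations within groups), and it was 0.94 over the DOX and 0.91 over the control tumours alone. DOX tumour 4 was lowest and control tumour 2 highest in both genes. Without these 2 tumours, the farthest from the median of Tgfb2, r was 0.74 (exact permutation p = 0.0764), so the relation rests in part on them.

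Skil and Inhba had Pearson's r = 0.87 (exact p = 0.000719, adjusted p = 0.0196) and Spearman's rho = 0.88 (exact p = 0.00724, adjusted p = 0.13), so the rank measure missed the threshold after adjustment. The value within groups was 0.81 (exact p = 0.00694). Without DOX tumours 3 and 4, the farthest from the median of Skil, r was 0.73 (exact permutation p = 0.101), so the relation rests in part on these 2 tumours. Skil counts were whole in 8 of 8 libraries and Inhba counts in 0 of 8, so fractional counts stood in 1 gene of the pair. Leaving out DOX tumour 3, DOX tumour 4 or control tumour 4 in turn left 0 of 36 pairs past the threshold.

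The other 34 pairs did not pass, among them 5 with an unadjusted exact permutation p below 0.05. For this count, too, the share over pairs of all tested genes was not computed. Tgfb1 ran against Skil, with r = -0.83 and rho = -0.71 (exact p = 0.0142 and 0.0576; adjusted p = 0.171 and 0.296), and against Inhba, with r = -0.82 and rho = -0.83 (exact p = 0.0266 and 0.0154; adjusted p = 0.184 and 0.185). The first of these was -0.48 without DOX tumour 4 and the second -0.59. Smad3 ran with Tgfb2 at r = 0.71 and with Tgfb3 at r = 0.74 (exact p = 0.0238 and 0.0307, both with an adjusted p of 0.184), and without DOX tumour 4 these were 0.56 and 0.58. Tgfbr2 and Smad7 had r = -0.74 (exact p = 0.049, adjusted p = 0.252), or -0.41 without control tumour 1. Skil and Smad7, both feedback genes, had r = 0.48 (exact p = 0.243, adjusted p = 0.468), and the receptor genes Tgfbr1 and Tgfbr2 had r = 0.53 (exact p = 0.183, adjusted p = 0.44). In sign 20 pairs were positive and 16 negative.

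**Figure D3:**
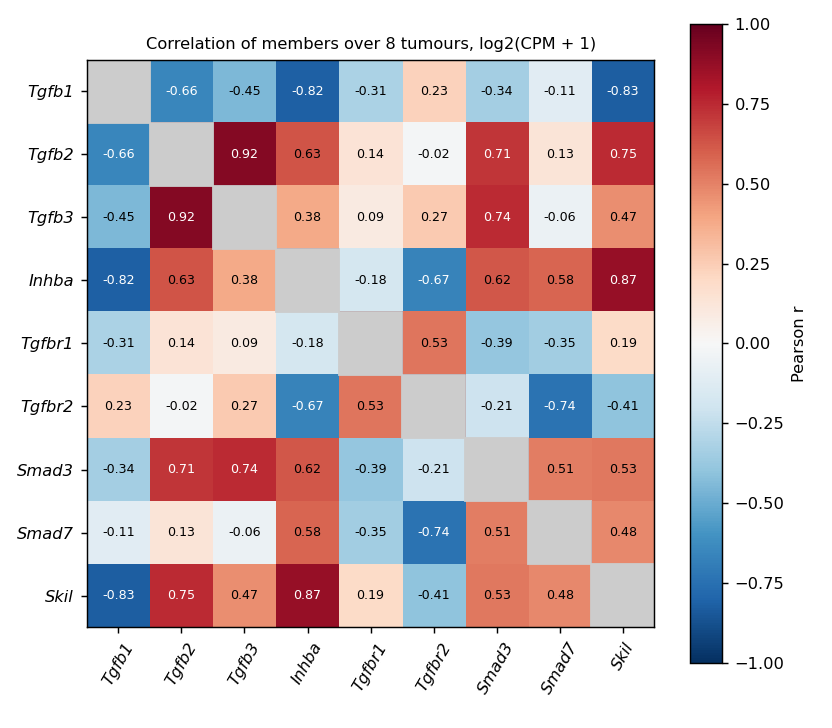
Pearson's r of log2(CPM + 1) over the 8 tumours for each of the 36 pairs of members (color scale from -1 to 1, values printed in the cells, grey diagonal). The strongest positive cells are Tgfb2 with Tgfb3 at 0.92 and Skil with Inhba at 0.87, and Tgfb1 is negative with both Skil and Inhba.

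**Figure D4:**
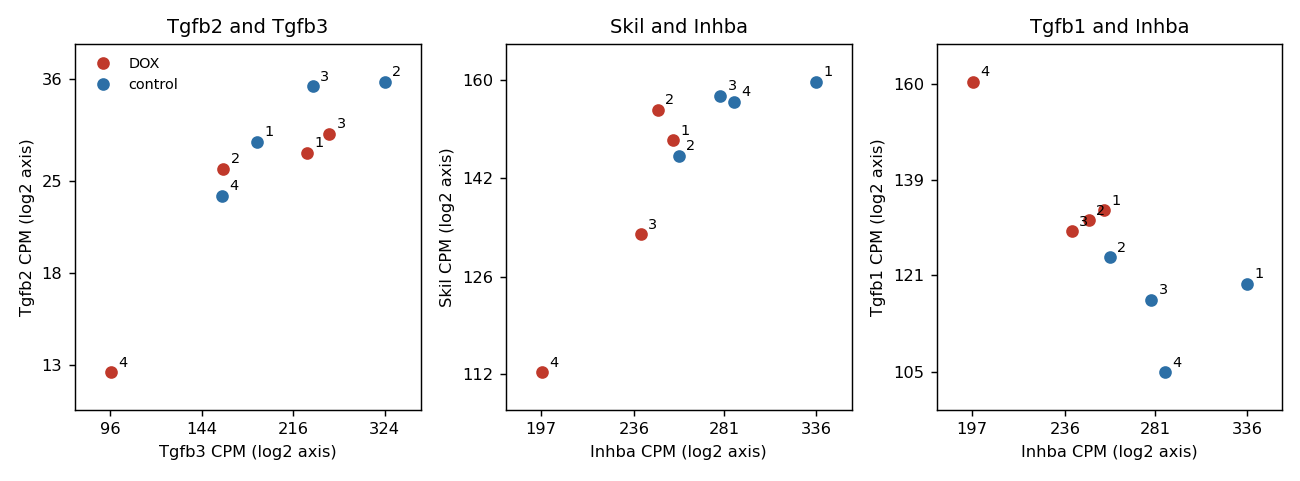
CPM of 3 pairs of members in each tumour, on log2 axes, with DOX tumours in red and control tumours in blue, numbered. DOX tumour 4 lies at the lower left for Tgfb2 with Tgfb3 and for Skil with Inhba, and at the upper left for Tgfb1 against Inhba.

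The genes whose levels ran most like those of a member were taken as the 3 with the highest r among 12839 other named genes, so the size of r is a description only. For Tgfb1 they were Slc37a1, a sugar phosphate transporter gene, the Krüppel-like factor gene Klf13 and the lysosomal sulfatase gene Galns, with r between 0.98 and 0.99 over the 8 tumours. For Tgfb2 they were Sec23a, which encodes a coat protein of secretory vesicles, Ldlrad4, an inhibitor of TGF-beta signalling that is also on the list of target genes below, and the transcription factor gene Onecut2, with r between 0.98 and 0.99. Tgfb3 ran most closely with the G protein gene Gnao1 (r = 0.99), then with Cd99l2 and Zfp703. For Inhba the closest were the collagen receptor kinase gene Ddr2, the cell cycle inhibitor gene Cdkn2a and Prdm4, with r between 0.97 and 0.98. Skil ran with Ccdc18, Zfp770 and Rictor, a component of the mTORC2 kinase complex, each at r = 0.98. For Tgfbr1 these were Gpr149, Huwe1 and Il1rap, and for Tgfbr2 Ptms, Zbtb12 and Zcchc17, with r between 0.97 and 0.98. Smad3 had Hsf4, Zfp647 and Zfp672, and Smad7 had Mcm9, Med18 and Cdca5, with r between 0.95 and 0.98.

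The other genes of the pathway were read through 7 lists with 87 genes, of which 73 were tested. With edgeR 0 of the 73 passed an adjusted p of 0.05, while 13 had an unadjusted p below 0.05, 7 on the higher and 6 on the lower side; DESeq2 called 1. Over all tested genes the shares were 11.6% with such a p in edgeR, 7.65% on the higher and 3.95% on the lower side, and 0.618% called by DESeq2, and the counts of single lists given next, at most 5 genes each, are not read as results about those lists. In sign 22 were higher and 51 lower in DOX tumours, and the median log2 fold change was -0.08, against -0.01 over all tested genes, of which 46.8% were higher.

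**Figure D5:**
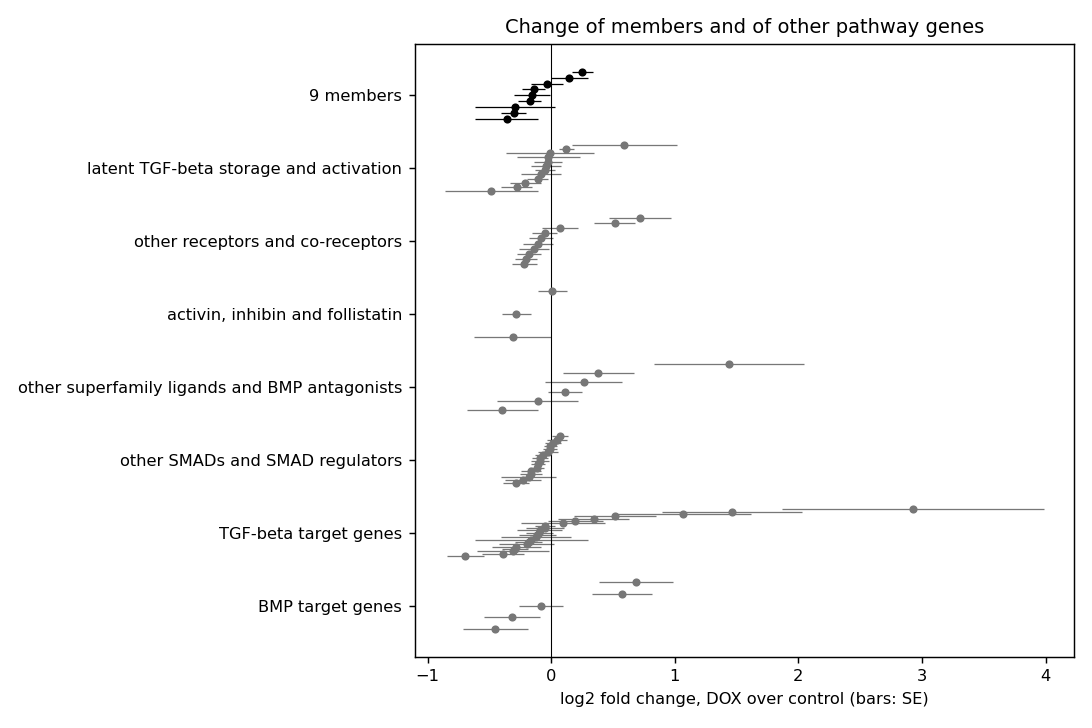
Log2 fold change of DOX over control tumours (x axis, bars ± SE, edgeR) for the 9 members (black) and for the tested genes of 7 other lists of the pathway (grey), ordered by value within each list. Of the members 3 of 9 and of the other genes 31 of 73 lie within 1 SE of 0, and the largest value is that of the smooth muscle gene Tagln at 2.93.

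Of 12 tested genes that store or activate latent TGF-beta, 0 had an unadjusted edgeR p below 0.05, and the median log2 fold change was -0.05 (2 higher, 10 lower). Ltbp1, a latent TGF-beta binding protein gene, had the smallest p, at 136, 150, 112 and 138 CPM in DOX tumours 1 to 4 against 195, 153, 132 and 171 CPM in control tumours 1 to 4. Its groups overlapped, and its log2 fold change was -0.28 ± 0.13 (SE, edgeR adjusted p = 0.439), or -0.18 without control tumour 1. Its relative Ltbp3 had -0.21 ± 0.13 (SE), Nrros, which holds latent TGF-beta on macrophages and microglia, 0.12 ± 0.06 (SE), and Thbs1, the gene of the activator thrombospondin-1, 0.59 ± 0.43 (SE), each with an adjusted edgeR p of at least 0.475. With a tumour left out, Ltbp3 came to -0.11 (control tumour 2) and Thbs1 to 0.29 (DOX tumour 2) or 0.94 (control tumour 1).

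Among 10 tested genes of other receptors and co-receptors, 2 had an unadjusted edgeR p below 0.05 on the higher and 1 on the lower side, with a median of -0.09. Endoglin (Eng), a co-receptor of endothelial cells and macrophages, stood at 35.9, 49.4, 43.6 and 66.4 CPM in DOX tumours 1 to 4, against 31.4, 35.6, 35.5 and 34.4 CPM in control tumours 1 to 4. All DOX tumours lay above all controls, narrowly so at 35.9 CPM in DOX tumour 1 against 35.6 CPM in control tumour 2, and the log2 fold change was 0.51 ± 0.17 (SE, edgeR adjusted p = 0.387). Acvrl1, which encodes the endothelial type I receptor ALK1, had 0.72 ± 0.25 (SE, edgeR adjusted p = 0.387). Both were highest in DOX tumour 4, without which Eng had 0.33 and Acvrl1 0.45. The macrophage marker sum was also highest in that tumour, at 4330 CPM. Of its 8 markers 7 had an unadjusted edgeR p below 0.05 on the higher side, against 7.65% of all tested genes. The part of the macrophage sum in the Eng level was not tested. Of 7 other endothelial markers 0 had an unadjusted edgeR p below 0.05, and their sum was 57.4 to 93.3 CPM in DOX and 54.9 to 94.3 CPM in control tumours. The activin receptor gene Acvr2a had -0.20 ± 0.09 (SE), with all DOX tumours below all controls, and the bone morphogenetic protein (BMP) receptor gene Bmpr1a -0.22 ± 0.10 (SE), with adjusted edgeR p of 0.423 and 0.446; without DOX tumour 4 these were -0.12 and -0.12.

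Of the activin and inhibin genes besides Inhba, 3 were tested. Inha, the inhibin alpha subunit gene, had a log2 fold change of -0.28 ± 0.12 (SE, edgeR adjusted p = 0.406) with overlapping groups and a whole count in 0 of 8 libraries. Inhbb had -0.31 ± 0.31 (SE), between -0.55 and -0.09 with a tumour left out, and Fstl3, a secreted activin antagonist gene, 0.01 ± 0.11 (SE). Among 6 tested BMP and growth differentiation factor ligands and antagonists, with a median of 0.19, only Gdf15, a stress-induced cytokine gene, had an unadjusted edgeR p below 0.05. It stood at 0.621, 1.04, 1.41 and 3.85 CPM in DOX tumours 1 to 4, against 0.219, 0.881, 0.830 and 0.590 CPM in control tumours 1 to 4, with DOX tumour 4 highest and the other DOX tumours overlapping the controls. Its log2 fold change was 1.44 ± 0.61 (SE, edgeR adjusted p = 0.414), or 0.69 without DOX tumour 4, and its lowest library held 4 counts.

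The 16 tested genes of other SMADs and their regulators had a median log2 fold change of -0.09, with 13 of 16 on the lower side and 1 of them at an unadjusted edgeR p below 0.05. Smad1, a carrier of BMP signals, had the smallest p, with 54.0, 46.7, 44.5 and 43.2 CPM in DOX tumours 1 to 4 against 68.0, 54.5, 56.0 and 51.1 CPM in control tumours 1 to 4. Its log2 fold change was -0.29 ± 0.10 (SE, edgeR adjusted p = 0.387). Smad4, the common partner of the signalling SMADs, had -0.11 ± 0.05 (SE, edgeR adjusted p = 0.462), with all DOX tumours below all controls. Without both DOX tumour 4 and control tumour 1, Smad1 came to -0.15 and Smad4 to -0.06. The anchor gene Zfyve9 (SARA) had -0.12 ± 0.06 (SE) and the SMAD4 ligase gene Trim33 -0.16 ± 0.08 (SE), with adjusted edgeR p of 0.493 and 0.46; Trim33 had -0.09 without DOX tumour 4.

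Of 21 tested TGF-beta target genes, 2 had an unadjusted edgeR p below 0.05 on the higher and 3 on the lower side, with a median of -0.10. The TGF-beta inducible early genes Klf10 and Klf11, which encode Krüppel-like repressors, were on the lower side. Klf11 stood at 13.2, 9.91, 9.56 and 10.9 CPM in DOX tumours 1 to 4, against 22.2, 14.9, 15.9 and 17.6 CPM in control tumours 1 to 4. All DOX tumours lay below all controls, and its log2 fold change was -0.69 ± 0.15 (SE, edgeR adjusted p = 0.387); it was the 1 pathway gene that DESeq2 called (adjusted p = 0.0228). Klf10 stood at 136, 127, 124 and 108 CPM in DOX tumours 1 to 4, against 180, 152, 147 and 128 CPM in control tumours 1 to 4. Its groups overlapped, and its log2 fold change was -0.29 ± 0.11 (SE, edgeR adjusted p = 0.387), or -0.13 without both DOX tumour 4 and control tumour 1.

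The contractile genes Acta2 and Tagln, which TGF-beta raises in myofibroblasts, were on the higher side through DOX tumours 2 and 4. Tagln stood at 0.207, 17.5, 2.25 and 10.5 CPM in DOX tumours 1 to 4, against 0.382, 1.04, 0.571 and 1.98 CPM in control tumours 1 to 4. Acta2 stood at 5.64, 39.6, 9.92 and 25.4 CPM in DOX tumours 1 to 4, against 6.39, 7.93, 4.72 and 10.2 CPM in control tumours 1 to 4. Their groups overlapped, DOX tumour 1 lying within or below the controls, and both had whole counts in 0 of 8 libraries. Tagln had a log2 fold change of 2.93 ± 1.06 and Acta2 of 1.46 ± 0.57 (SE, edgeR adjusted p = 0.389 and 0.398), and without DOX tumour 2 Acta2 had 0.90. The lowest library of Tagln held 4 counts. The summed level of 8 skeletal muscle marker genes was 16.3, 184, 88.0 and 175 CPM in DOX tumours 1 to 4, against 2.40, 48.7, 31.0 and 3.43 CPM in control tumours 1 to 4, high in the same DOX tumours; its part in these levels was not tested. Pericyte markers, with 0 of 6 at an unadjusted edgeR p below 0.05, summed to 180 to 273 CPM in DOX and 180 to 281 CPM in control tumours, and fibroblast markers, with 0 of 7, to 689 to 847 CPM in DOX and 512 to 1104 CPM in control tumours.

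Of 5 tested BMP target genes, 2 were higher and 3 lower in sign, with a median log2 fold change of -0.08. The 2 higher, Id2 and Hey1, are genes of transcriptional regulators that other signals also drive, and each had an unadjusted edgeR p below 0.05. Id2 stood at 38.3, 60.5, 55.5 and 98.7 CPM in DOX tumours 1 to 4, against 44.2, 41.1, 42.6 and 41.8 CPM in control tumours 1 to 4. DOX tumour 1 lay below every control and DOX tumour 4 far above, and the log2 fold change was 0.58 ± 0.24 (SE, edgeR adjusted p = 0.422), or 0.28 without DOX tumour 4. Hey1 had 0.69 ± 0.30 (SE, edgeR adjusted p = 0.423). Id3 and Id4 had -0.32 ± 0.23 and -0.45 ± 0.26 (SE, edgeR adjusted p = 0.619 and 0.526), or -0.18 and -0.28 without control tumour 2.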

How the data were processed

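RNA from 8 tumours was sequenced after library preparation with an mRNA kit, per the labels' protocols. HISAT, Bowtie2 and GRCm38.p6 are named in the submitters' processing notes. The sources used here do not give the counting tool, the annotation or the use of strand, so overlapping and antisense genes may share reads. The read counts deposited by the authors were taken to be expected counts: 64.9% were whole within 0.005, and no label names the estimation step. They were rounded to whole numbers for the tests. FPKM values, scaled to length and depth by the authors, were used for levels between genes and as an alternative. A TPM table holds 8 columns whose names match no label; these 8 columns were not used.

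DOX and control tumours were compared with edgeR 4.0.16 in R 4.3.3 (filterByExpr, TMM, robust quasi-likelihood F test, Benjamini-Hochberg adjustment over 13436 genes at 0.05). The SE is the log2 fold change divided by the square root of F. Alternatives used DESeq2 1.42.0, limma 3.58.1 on log2(FPKM + 1), other scaling and filters, a replicate block and each tumour left out. The scripts were tested on simulated data. Members had at least 237 counts in every library, and edgeR gave a coefficient of variation between animals of 14.7% over all genes. Libraries differed by more than sampling noise (chi-square per degree of freedom at least 5.25), and none was a duplicate. The named genes are the members, Cxcl14, up to 4 genes of each list with the smallest p, and 3 genes most like each member. Members and lists were chosen with earlier results of these data known. Promoter windows come from RefSeq, build GRCm38.p6. On the lists, Inhbc, Trac, Krt19 and Cdx2 were not analysed here.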

Additional observations from a re-analysis of the deposited data

Results flagged for a closer look

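Tgfb1 in DOX tumour 4, at 161 CPM, stood apart from the other DOX tumours at 129 to 133 CPM: the gap to the nearest was 0.873 of the range of the group, above the critical value of Dixon's test for 4 samples. It was the 1 such value in 18 groups of 4 (9 members in 2 groups), where chance flags about 1 in 20.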

How the results depend on the processing

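In edgeR, with each setting and each tumour left out, 0 of 9 members passed an adjusted p of 0.05, and DESeq2 and limma on FPKM gave 0 as well. All tested genes gave 1 call, 82 with DESeq2 and 1 to 2 with a tumour left out. Of the pathway lists 0 genes passed, or 1 with DESeq2. Of 153 log2 fold changes of members under the other settings 150 kept their sign; that of Tgfbr1 turned to 0.04 without control tumour 3, 0.04 without control tumour 4 and 0.0024 without DOX tumour 4, and ranged from -0.15 to 0.04 with a tumour left out. The count of 2 correlated pairs was 1 with Spearman's rho, 0 within groups, where the smallest p that permutations allow is 0.00174 and a lone pair out of 36 cannot pass, 0 to 2 with a tumour left out, and 0 without both DOX tumour 4 and control tumour 1, an alternative added after seeing the data. For the last, 6 tumours remained. Why the counts differ otherwise was not tested.

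Tumours with the same number in both groups are not said to be paired. Their deviations from the group means correlated at r = -0.02 to 0.09 over the tested genes. Such values cannot exclude that these tumours shared more than the number. The highest r between the groups was 0.22, for control tumour 2 with DOX tumour 3. Control tumour 1 correlated best with DOX tumour 4, at 0.09. With the replicate block the counts were 0 of 9 members, 1 gene of all and 0 pathway genes. The log2 fold changes of Tgfb1 and Inhba were then 0.25 and -0.30. That of Tgfb2 was -0.41 with the block and -0.36 without it. Its unadjusted edgeR p was 0.0234 with the block (adjusted p = 0.399) and 0.192 without it. For Tgfb1 the unadjusted edgeR p was 0.0441 with the block and 0.0154 without it. Among the members and the named genes of the pathway lists, depth limits Tagln and Gdf15 most, with 4 counts each in their lowest library. The members had at least 237.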
